A study of Arabidopsis thaliana with 6 samples.

Results

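The SUVH family of Arabidopsis thaliana was followed across early embryos and the seed coat. Its 9 members, taken by locus identifier from a list made for this work, were KYP (KRYPTONITE, also SUVH4, AT5G13960), SUVH5 (AT2G35160), SUVH6 (AT2G22740), SUVH2 (AT2G33290), SUVH9 (AT4G13460), SUVH1 (AT5G04940), SUVH3 (AT1G73100), SUVH7 (AT1G17770) and SUVH8 (AT2G24740). All 9 were among the 32140 loci of the files, and where a locus had several isoforms, the most-read one over all libraries stood for it. RNA came from dissected tissue and was amplified linearly before SOLiD sequencing, a short-read method. WT embryos had a Landsberg erecta (Ler) mother and a Columbia (Col) father, both wild type, and gave 2 libraries of 2-4 cell embryos (named here WT7 and WT11 by library number) and 1 of globular embryos. For the kyp embryos, all at 2-4 cells (kyp11 and kyp12), the Ler mother carried the mutant allele kyp-2 and the Col father was wild type, so each embryo still inherits a wild-type paternal KYP copy. The last library was wild-type Ler seed coat from seeds with 2-4 cell embryos. Embryo samples included part of the suspensor, the stalk that joins the embryo to the seed, and no label gives the number of embryos or separate plants behind a library. The p-values therefore measure the spread between these libraries, which may be technical.

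SUVH proteins pair an SRA domain, which binds methylated cytosine in DNA, with a SET domain, the fold of histone lysine methyltransferases. KYP, SUVH5 and SUVH6 methylate histone H3 at lysine 9, and the mark recruits the DNA methyltransferase CMT3, whose product is bound again by the SRA domain. SUVH2 and SUVH9 bind methylated DNA but lack methyltransferase activity, and they bring RNA polymerase V to its sites in RNA-directed DNA methylation. SUVH1 and SUVH3 also read methylated DNA, and act with DNAJ-domain proteins to promote transcription of nearby genes. SUVH7 and SUVH8 are less well described, and SUVH7 is known in endosperm as an imprinted gene expressed from the paternal copy.

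Gene totals lay between 1448502 and 4107227 reads per library, and ribosomal RNA took 8.999% of WT11 against 0.804 to 1.80% elsewhere. For kyp11 the labels give the mother as kyp-2 and, in a further entry, as wild type, and the titles of both kyp libraries name the cross as for WT. The tissue labels were checked against markers. LEC1, an embryo transcription factor, had 23 to 89 reads in the 5 embryo libraries and 0 in the seed coat library, and WOX2, a homeobox gene of the early embryo, had 11 to 167 and 2. Both were called lower in seed coat than in WT 2-4 cell embryos (edgeR adjusted p = 0.0440 and 0.0192). The other 4 embryo markers did not all follow. DRN and WOX8 had 0 and 1 reads in the seed coat library, but ATML1, the most abundant of the 6, was at 326 CPM there and at 322 CPM in the globular library, and STM had 8 reads there and 0 to 6 in the embryo libraries. All 10 seed coat markers, DFR and TT12 of the flavonoid pathway among them, had reads in every library. Their summed level was 1544 CPM (reads scaled to library size with TMM factors) in the seed coat library, 1470.3 and 1066 in WT7 and WT11, 1034 and 1590.4 in kyp11 and kyp12, and 949.5 in the globular library. This list thus did not set the seed coat library apart from the embryo libraries, and the part of maternal RNA in the values below was not tested. The 6 endosperm markers, PHE1 and MEA the most abundant, summed to 38.7 and 24.0 CPM in WT7 and WT11, 81.1 and 25.9 in kyp11 and kyp12, 12.4 in the globular and 66.9 in the seed coat library. Between 0 and 2 of the 6 were without reads in a library.

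In the RefSeq annotation of TAIR10.1, KYP was the member with a divided coding region, in 14 coding exons, while the coding region of each of the other 8 lay in 1 exon. The deposited transcripts were 2082 bases (SUVH7) to 2824 bases (SUVH1) long. Of all stretches of 50 bases in the members' exons, none recurred elsewhere in that genome, except 27 of 2192 in SUVH8. The labels do not say that strand was kept, so overlap with genes on the other strand matters. SUVH1, SUVH5, SUVH7 and SUVH9 had no such neighbour. A long non-coding RNA, AT2G07845, lay over 1086 exon bases of SUVH6, or 40.7% of its exons, so SUVH6 is uncertain. The overlap was 60 bases (2.35%) for KYP with AT5G13970, 62 bases (2.56%) for SUVH3 with AT1G73110 and 43 bases (1.73%) for SUVH2 with a non-coding RNA. SUVH8 shared no exon base with the non-coding RNA beside it.

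Across the family, levels per transcript length ranged widely. Averaged over the 6 libraries, SUVH1 was at 29.97 RPKM (the same scaled also by transcript length), SUVH9 at 22.7, SUVH3 at 20.5 and KYP at 19.9. SUVH6 followed at 12.7 RPKM, SUVH2 at 9.02 and SUVH5 at 7.30, while SUVH8 at 1.43 and SUVH7 at 0.916 were scarcely read. KYP stood between the 50.7th percentile (globular) and the 73.2nd (WT11) of the 17706 loci with enough reads for testing. SUVH3 moved furthest in that ranking, from the 34.4th percentile in the seed coat library to the 84.5th in the globular library.

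**Figure D1:**
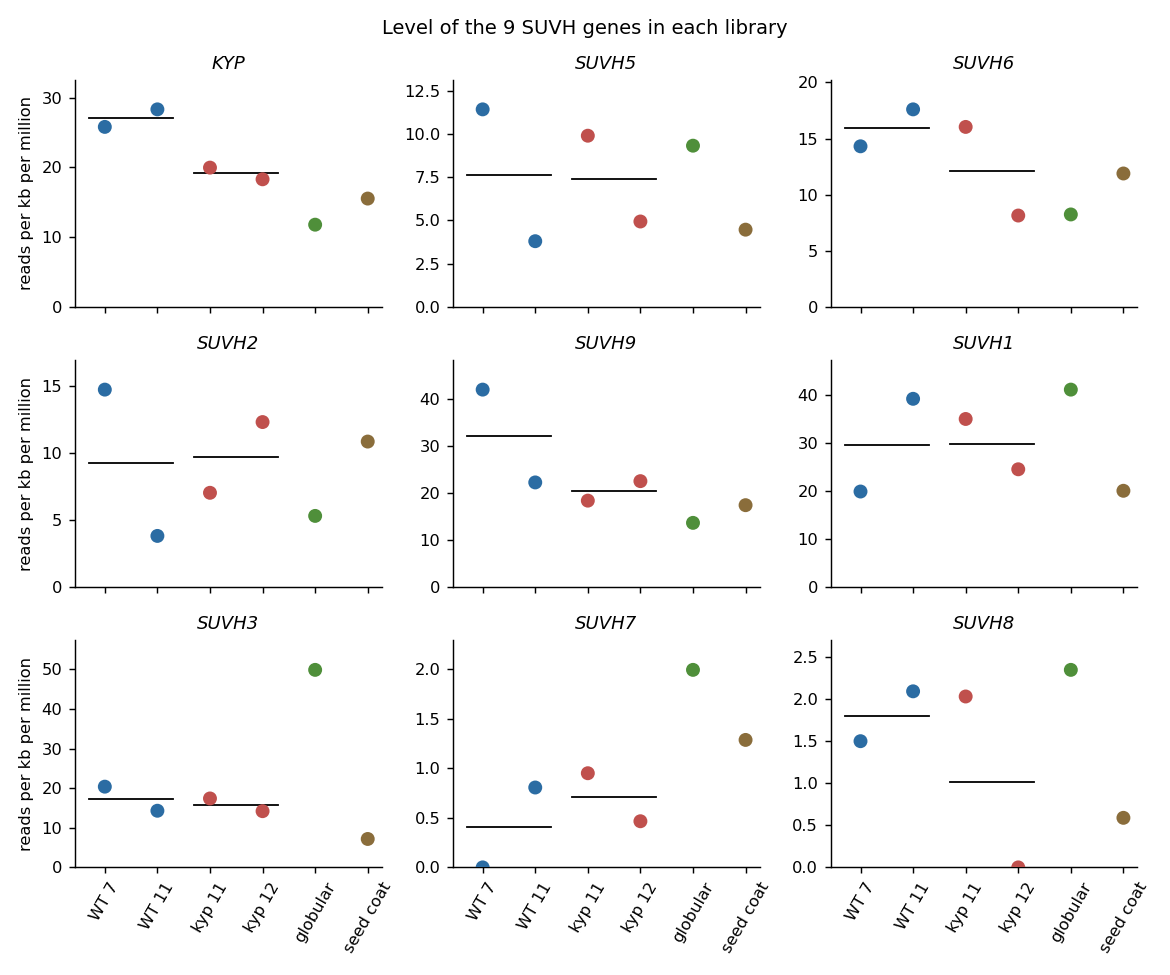
Level of each SUVH gene (y axis, RPKM with TMM factors, own scale per panel) in each of the 6 libraries (x axis), with a black line at the mean of each pair of 2-4 cell libraries. SUVH3 stands at 49.9 in the globular library and at 20.4 or below in all others, while KYP is highest in both WT 2-4 cell libraries.

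Setting kyp against WT embryos of 2-4 cells asks whether the family's transcripts differ when the mother is mutant for KYP. KYP itself was lower in both kyp libraries than in either WT library, and the other members overlapped between the groups. Of the 8 members with enough reads, edgeR's quasi-likelihood test called 0 (0 at an unadjusted p under 0.05, 0 by DESeq2), against 0.0313% of the 15996 genes tested. The median log2 fold change was −0.27 over these 8 and −0.0011 over all genes tested. SUVH7 had too few reads to be tested.

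KYP transcripts were at 25.8 and 28.3 RPKM in WT7 and WT11, and at 19.96 and 18.3 RPKM in kyp11 and kyp12. The 2 pairs did not overlap, and within each pair the libraries differed 1.10-fold (WT) and 1.09-fold (kyp). As group means these were 27.1 ± 1.78 RPKM (SD, n = 2) and 19.1 ± 1.18 RPKM (n = 2). The log2 fold change was −0.50 (SE 0.42, 95% interval −1.41 to 0.42, edgeR adjusted p = 1.00). It lay between −0.56 and −0.43 under the 11 alternatives tried, none of which called it. KYP was the only 1 of 8 tested members whose pairs did not overlap, a pattern shown by 33.1% of all genes tested. Within the pairs of libraries that share a name prefix, kyp minus WT was −0.37 without the prefix (kyp11, WT7) and −0.63 with the prefix MC (kyp12, WT11), on the log2 scale. The labels do not say what the prefix stands for. The files do not separate reads of the maternal and paternal copy, and no label says that kyp-2 lowers the transcript, so these levels are no check of the genotype. AT5G13970, which overlaps KYP at 60 bases, was at 99.2 and 47.5 CPM in the WT and at 45.5 and 75.3 CPM in kyp, in the same library order.

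SUVH5 and SUVH6, the other enzymes that methylate lysine 9, showed no shift between the groups beyond their spread. SUVH6 was at 14.3 and 17.6 RPKM in WT7 and WT11 and at 16.0 and 8.14 RPKM in kyp11 and kyp12. Its log2 fold change was −0.41 (SE 0.52, interval −1.54 to 0.72). SUVH5 was at 11.4 and 3.80 RPKM in the WT libraries and at 9.89 and 4.93 RPKM in the kyp libraries. Here the libraries of a group differed 3.01-fold (WT) and 2.00-fold (kyp), while the log2 fold change between groups was −0.04 (SE 0.70, interval −1.56 to 1.49). Both MC libraries, WT11 and kyp12, were the low ones for SUVH5. The ratio of KYP to the sum of SUVH5 and SUVH6, all in RPKM, was 1.00 and 1.32 in WT and 0.770 and 1.40 in kyp, so the groups overlapped.

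SUVH9 had the largest fold change in size after the sparse SUVH8, and it was not called. It was at 41.9 and 22.2 RPKM in WT7 and WT11 and at 18.4 and 22.5 RPKM in kyp11 and kyp12. WT7 stood apart, and the other 3 libraries lay within 18.4 to 22.5 RPKM. The log2 fold change was −0.64 (SE 0.43, interval −1.58 to 0.30, edgeR adjusted p = 1.00). SUVH2, its close relative in function, was at 14.7 and 3.82 RPKM in the WT libraries and at 7.04 and 12.3 RPKM in the kyp libraries. Its 2 WT libraries differed 3.86-fold and enclosed both kyp values (log2 fold change 0.09, SE 0.70, interval −1.44 to 1.63).

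The methylation readers SUVH1 and SUVH3 were close between the groups. SUVH1 averaged 29.5 ± 13.6 RPKM in WT and 29.8 ± 7.40 RPKM in kyp (n = 2 each). Its log2 fold change was 0.01 (SE 0.43, interval −0.93 to 0.95). SUVH3 averaged 17.3 ± 4.30 RPKM in WT and 15.8 ± 2.27 RPKM in kyp, a log2 fold change of −0.13 (SE 0.47, interval −1.15 to 0.90). SUVH8 had 8 and 17 reads in the WT libraries and 7 and 0 in the kyp libraries, with an interval of −4.62 to 2.66.

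**Figure D2:**
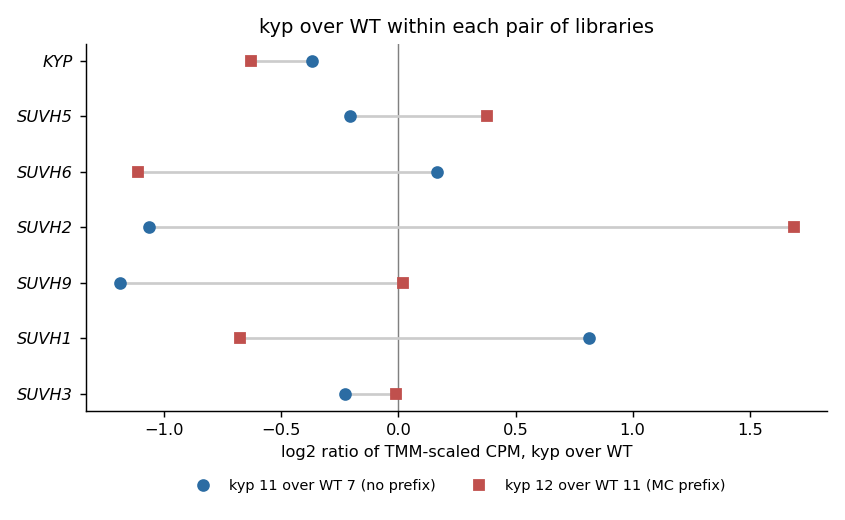
Log2 ratio of kyp to WT level (x axis, TMM-scaled CPM) for the 7 SUVH genes (y axis) with over 3 reads in all 4 libraries of 2-4 cell embryos, taken within the pair without the MC prefix (circles) and the pair with it (squares). KYP, at −0.37 and −0.63, and SUVH3, at −0.23 and −0.01, are negative in both pairs, while SUVH1, SUVH2, SUVH5, SUVH6 and SUVH9 change sign.

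Taken within the 2 pairs, SUVH2 ranged most, from −1.07 (no prefix) to 1.69 (MC prefix) on the log2 scale. SUVH1 was at 0.81 and −0.68, SUVH6 at 0.16 and −1.11, SUVH9 at −1.19 and 0.02, and SUVH5 at −0.21 and 0.38, in the same order. For these 5 genes the sign of the kyp difference thus turned with the pair. Each pair holds 1 library a group, so none of these values has a test.

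The globular library was compared with WT 2-4 cell embryos of the same cross to follow the family as the embryo grows. SUVH3 and SUVH1, both methylation readers, were higher in the globular library than in any 2-4 cell library, and KYP and SUVH9 were lower than in any. None of the 8 tested members passed the edgeR threshold, against 1.16% of 17706 genes tested. At an unadjusted p under 0.05 it was 1 of 8, against 11.3% of all genes. DESeq2 called 0 of 7, against 2.89% of all genes. The median log2 fold change was −0.24 over the 8 members, and it was −0.12 over all genes tested. With 1 globular library, its spread was taken to be that of the 2-4 cell pairs.

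SUVH3 was at 49.9 RPKM in the globular library, from 204 reads. It was at 20.4 and 14.3 RPKM in WT7 and WT11 and at 17.4 and 14.2 RPKM in kyp11 and kyp12. The globular value was thus above a narrow band held by all 4 libraries of the earlier stage. The log2 fold change over WT was 1.53 (SE 0.53, interval 0.40 to 2.65, edgeR adjusted p = 0.242, unadjusted p = 0.0108). It lay between 1.29 and 1.80 over 10 alternatives, with adjusted p from 0.185 to 0.412. Its neighbour AT1G73110, on the other strand, had 2 reads in the globular library.

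SUVH1 reached 41.1 RPKM in the globular library, just above the 39.2 RPKM of WT11 (log2 fold change 0.47, SE 0.53, interval −0.64 to 1.59). In contrast to SUVH3, its 2-4 cell libraries were spread from 19.9 to 39.2 RPKM.

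KYP was at its lowest level of all libraries here, 11.8 RPKM from 44 reads. Its log2 fold change over WT was −1.20 (SE 0.60, interval −2.47 to 0.07, edgeR adjusted p = 0.483), and it lay between −1.26 and −1.13 over 10 alternatives. SUVH9 was likewise at its lowest, 13.7 RPKM, with a log2 fold change of −1.23 (SE 0.59, interval −2.48 to 0.02, edgeR adjusted p = 0.457). The globular library thus held the lowest level of KYP and SUVH9 and the highest of SUVH3. SUVH6 at 8.24 RPKM (log2 fold change −0.95, SE 0.69), SUVH2 at 5.32 (−0.79, SE 0.90) and SUVH5 at 9.31 (0.30, SE 0.84) lay within the range of the 4 earlier libraries. Of the 8 tested members, 5 lay outside that range in the globular library (SUVH1, SUVH3, KYP, SUVH8 and SUVH9), and so did 48.9% of all genes tested. SUVH8 entered this count on 9 reads, at 5.33 CPM against 4.75 CPM in WT11, so its place is uncertain. In this library the summed levels of seed coat markers, 949.5 CPM, and of endosperm markers, 12.4 CPM, were also at their lowest. Single markers did not all follow. Against WT, 9 of 10 seed coat markers had a negative log2 fold change, while TT10 was at its highest of all libraries, 213 CPM. Of 5 tested endosperm markers, 4 were negative and 1 positive. The part of these markers in the differences was not tested. In bulk samples fewer cells of a type and less RNA per cell cannot be told apart.

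The seed coat library was compared with WT 2-4 cell embryos, maternal tissue against embryo at the same stage of the seed. The family as a whole was at its lowest here, with 89.3 RPKM summed over the 9 members against 105 to 150.0 RPKM in the embryo libraries. SUVH3 was lower than in any embryo library, while KYP and SUVH9 were lower than in the 2-4 cell embryos but above their globular levels. By edgeR 0 of 8 members were called (0 at an unadjusted p under 0.05, 0 of 7 by DESeq2), against 0.785% of 17706 genes tested. The median log2 fold change was −0.77 over the 8 and 0.00 over all.

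SUVH3 was at 7.18 RPKM in the seed coat library, from 39 reads. The log2 fold change from WT embryos was −1.26 (SE 0.61, interval −2.54 to 0.01, edgeR adjusted p = 0.534). KYP stood at 15.5 RPKM (log2 fold change −0.80, SE 0.58, interval −2.02 to 0.43) and SUVH9 at 17.4 RPKM (−0.87, SE 0.58, interval −2.09 to 0.34). These 3 of 8 tested members lay outside the range of the 4 libraries of 2-4 cell embryos, against 40.4% of all genes tested. SUVH1 at 20.1 RPKM (log2 fold change −0.56, SE 0.55), SUVH6 at 11.9 (−0.42, SE 0.66), SUVH5 at 4.46 (−0.75, SE 0.88) and SUVH2 at 10.9 (0.24, SE 0.84) lay inside it.

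Between the globular embryo and the seed coat, SUVH3 was the member that passed the test. It was 6.95-fold higher by TMM-scaled CPM in the globular library, 121 against 17.4 CPM. The fitted log2 fold change was 2.79 (SE 0.69, interval 1.33 to 4.25, edgeR adjusted p = 0.0495), and 1.78% of 17706 genes tested were called. DESeq2 also called SUVH3 alone, 1 of 7 members, against 5.42% of all genes. The median log2 fold change was 0.34 over the 8 tested members and −0.10 over all genes tested. It passed under 9 of 10 alternatives, with adjusted p from 0.00909 to 0.0827, and missed the threshold when isoforms were summed for every locus, though SUVH3 has 1 isoform (204 and 39 reads either way). Each tissue has 1 library, so the spread is that of the 2-4 cell pairs. Seed coat markers summed to 949.5 CPM in the globular and 1544 CPM in the seed coat library and endosperm markers to 12.4 and 66.9 CPM. Embryo markers summed to 369 and 330 CPM, most of it ATML1 at 322 and 326 CPM, while the median log2 fold change of the 5 tested was 2.80 and LEC1, with 54 and 0 reads, was called (edgeR adjusted p = 0.0139). The part of these markers in the difference was not tested. The overlapping AT1G73110 went the other way, with 2 reads in the globular and 17 in the seed coat library. SUVH1 (log2 fold change 1.03, SE 0.63) and SUVH5 (1.06, SE 1.00) were positive without passing. SUVH2 (−1.03, SE 1.01), SUVH6 (−0.53, SE 0.77), KYP (−0.40, SE 0.67) and SUVH9 (−0.35, SE 0.66) were negative without passing.

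**Figure D3:**
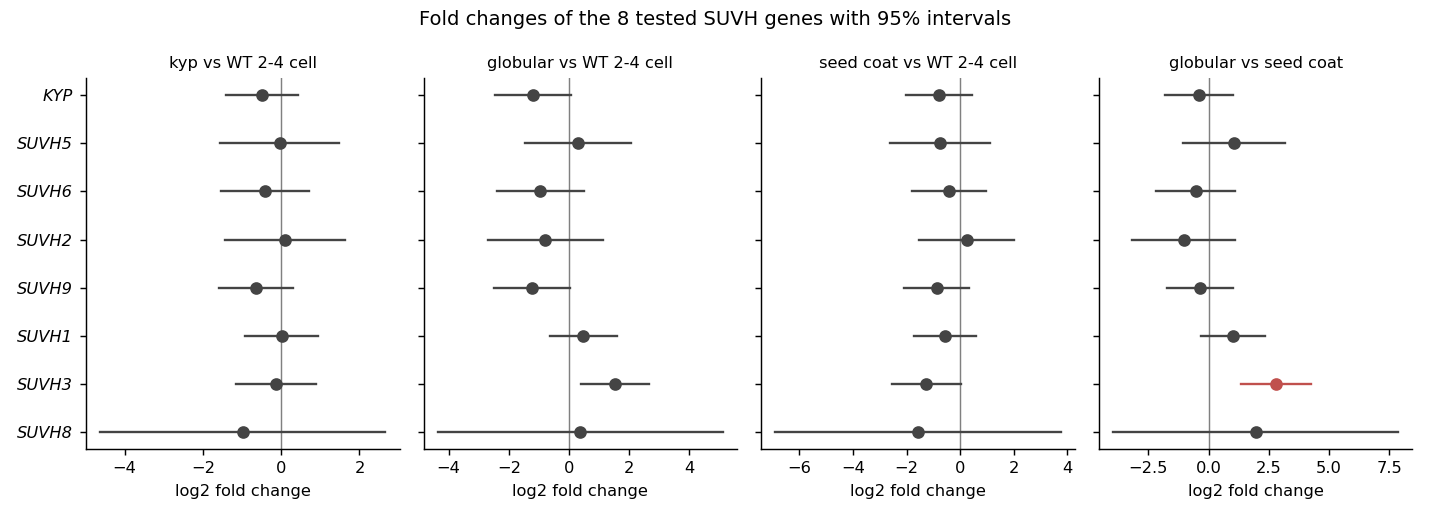
Log2 fold change (x axis, own scale per panel) with its 95% interval for the 8 tested SUVH genes (y axis) in 4 comparisons. The interval of SUVH3 in globular against seed coat, 1.33 to 4.25, is drawn in red because it passed the edgeR threshold of 0.05, and no other value did.

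A single test across all 4 groups called 0 of the 8 members by edgeR at the 0.05 threshold, against 1.8% of genes. At an unadjusted p under 0.05 it was 1 of 8, against 12.2% of genes. DESeq2 called 1 of 7, against 4.28% of genes. SUVH3 came nearest (F = 6.79, edgeR adjusted p = 0.104). Its adjusted p lay between 0.0148 and 0.182 over 10 alternatives, and each of the 4 fits without a 2-4 cell library called it, at 0.0258 to 0.0425. SUVH9 (F = 1.90) and KYP (F = 1.62) followed with edgeR adjusted p of 0.671 and 0.735. For KYP the order of levels was WT 2-4 cell, kyp 2-4 cell, seed coat and globular. For SUVH3 it was globular, WT 2-4 cell, kyp 2-4 cell and seed coat, and the libraries of the middle 2 groups overlapped.

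The make-up of the family, read as each member's share of the summed RPKM, is a view that does not depend on library scaling. SUVH1 and SUVH3 together made up 63.3% in the globular library. Their joint share was 26.9 and 40.5% in WT7 and WT11, 41.4 and 36.7% in kyp11 and kyp12, and 30.5% in the seed coat library. The globular library was thus the one in which the readers held most of the family. By member, SUVH3 was at 34.7% there and at 8.04 to 13.7% in the other libraries. SUVH1 was at 28.6% there, below its 29.7% in WT11 and near its 27.6% in kyp11, so its share did not stand apart. KYP, SUVH5 and SUVH6 made up 20.4% there and 29.8 to 37.6% in the other 5 libraries, and SUVH2 with SUVH9 13.2% against 19.7 to 37.8%. Shares sum to 100%, so the high share of SUVH3 there lowers those of all other members. The summed RPKM of KYP, SUVH5 and SUVH6 was 29.3 in the globular library, near the 31.4 of kyp12 and 31.9 of seed coat. It was 45.9 to 51.5 in the remaining libraries. For SUVH2 with SUVH9 the sum was 19.0 RPKM in the globular library and 25.4 to 56.7 in the others. SUVH3 alone took 204 of 623 family reads in the globular library, or 32.7% (95% Clopper-Pearson interval 29.1 to 36.6%), and 7.63% (5.48 to 10.3%) in the seed coat library. KYP took 7.06% (5.18 to 9.37%) of family reads in the globular library and 13.5 to 18.5% in the others. These intervals cover counting error of reads only, and amplified copies are not independent molecules.

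**Figure D4:**
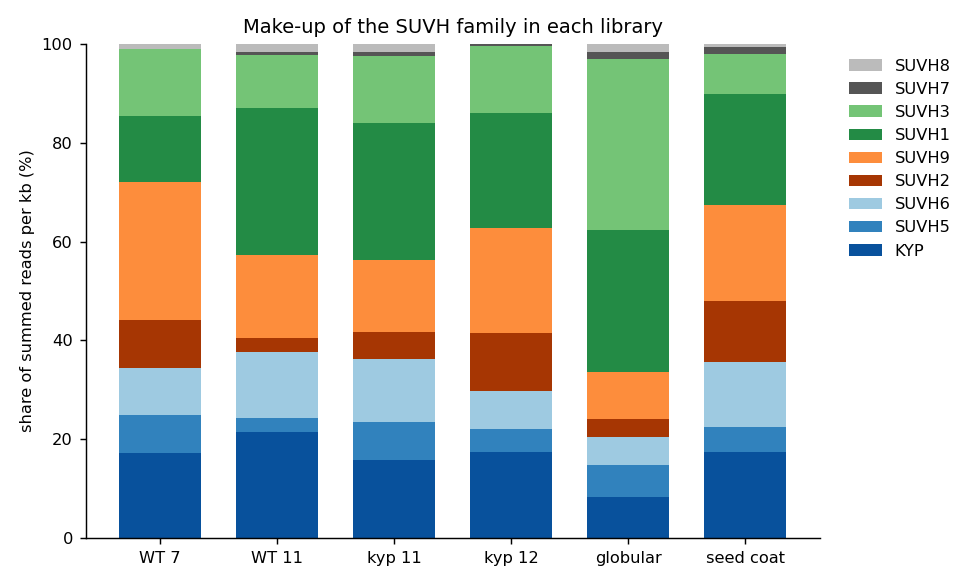
Share of each SUVH gene in the summed level of the family (y axis, percent of reads per kb, stacked) in each library (x axis), with blues for KYP, SUVH5 and SUVH6, oranges for SUVH2 and SUVH9 and greens for SUVH1 and SUVH3. The greens fill 63.3% of the globular bar and at most 41.4% of any other.

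SUVH7 and SUVH8 were near the limit of detection. SUVH7 had 0 and 6 reads in WT7 and WT11, 3 and 4 in kyp11 and kyp12, 7 in the globular and 6 in the seed coat library. A count of 0 in WT7 allows a level of up to 1.28 CPM (3 reads), and the levels of the other libraries were 0.969 to 4.15 CPM. For SUVH8 the counts were 8, 17, 7, 0, 9 and 3 in the same order. The 0 reads of kyp12, the deepest library, allow up to 0.727 CPM, below the 3.41 to 4.75 CPM of both WT libraries. No order between groups was read from either gene.

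How much of each transcript was covered by reads was set beside loci with similar reads and length (both within 20%). KYP was covered over 89.4% of its length in WT11 and 84.7% in kyp12, where the medians of such loci were 70.5 and 66.1%. In the seed coat library it was covered over 58.0%, against a median of 61.3%. SUVH3 lay above the median in all 6 libraries, with 75.0 against 67.1% in the globular and 54.7 against 44.4% in the seed coat library. SUVH2 lay below the median in all 6, with 24.1 against 26.3% in the globular library as its lowest coverage. SUVH7 was covered over at most 17.1% of its length and SUVH8 over at most 28.5%.

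**Figure D5:**
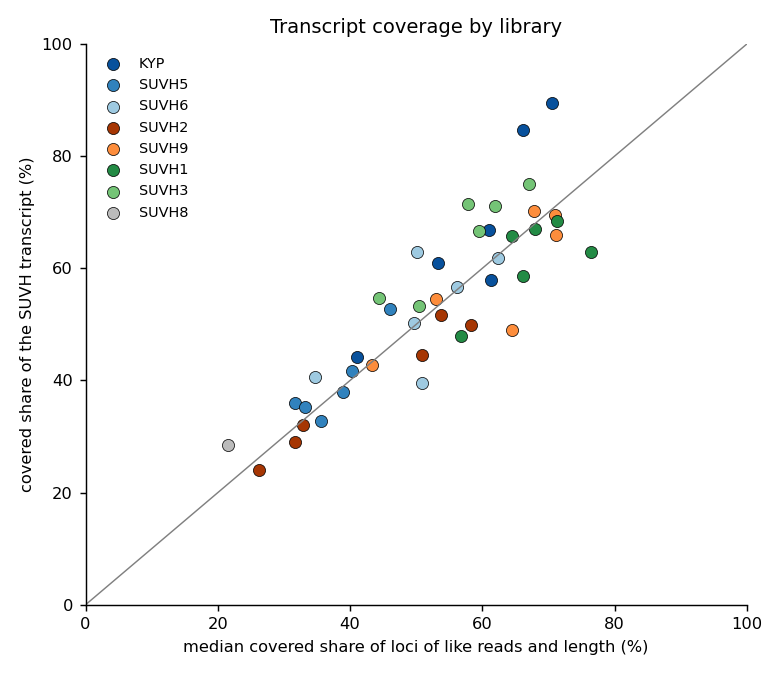
Covered share of the SUVH transcript (y axis, percent of its length) against the median of loci with similar reads and length in the same library (x axis, percent), 1 point per gene and library with at least 10 reads and the line of equality. SUVH3 lies above the line in all 6 libraries and SUVH2 below it.

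The loci whose pattern was most like that of KYP were taken from 13201 candidates with a mean of at least 20 reads, by Pearson correlation of log2(CPM + 1) over the 6 libraries. They were AT4G02425, an LYR motif protein (r = 0.993), AT5G20610, with an EEIG1/EHBP1 domain (0.990), and AT5G08500, of the CLPTM1 family (0.985). Next came QPT, a quinolinate phosphoribosyltransferase (0.985), and SYN4, a cohesin subunit (0.983). With 6 points that share their library scaling, and a choice of the highest among so many, these values are a description. All 5 were highest in the WT 2-4 cell libraries and lowest in the globular library, as KYP was. AT4G02425 was at 40.02 and 38.9 CPM in WT and at 7.11 CPM in the globular library.

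Genes that work beside the family were read from lists of relatives and partners. By edgeR 0 of 25 tested genes of these 6 lists were called in kyp, where DESeq2 called 0 and 0 had an unadjusted p under 0.05 (0.283 and 5.1% of all genes). In globular it was 0 of 26, where DESeq2 called 0 and 2 had an unadjusted p under 0.05 (2.89 and 11.3% of all genes). In seed coat, likewise 0 of 26 were called by edgeR (4 at an unadjusted p under 0.05, against 9.52% of all genes), but 2 of 24 by DESeq2, both VIM genes, against 3.44% of all genes. Between globular and seed coat, edgeR called 0 of 26 (3 at an unadjusted p under 0.05, against 13.8% of all genes) and DESeq2 1 of 24, a VIM gene, against 5.42% of all genes. The 5 SUVR genes, a sister group of SET-domain proteins without the SRA domain, had a median log2 fold change of 0.17 in kyp, −0.45 in globular and −0.44 in seed coat. SUVR5 was at 19.2 and 53.4 CPM in the WT libraries and SUVR2 at 67.7 and 31.9 CPM, so these genes differed in opposite ways between the 2 libraries. Both genes, like FWA, have an annotated gene on the other strand and are uncertain for that reason.

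The 3 VIM genes, which share the SRA domain and maintain CG methylation, had medians of −0.51, −1.05 and −2.58 in the same order. VIM1 was at 164 and 121 CPM in the WT libraries, 196 and 112 in the kyp libraries, 163 in the globular and 29.9 in the seed coat library. The seed coat value was thus below every embryo library (log2 fold change −2.24, SE 0.57, edgeR adjusted p = 0.0832). VIM3 was at 40.9 and 76.6 CPM in WT and 9.81 CPM in seed coat (−2.58, SE 0.72, edgeR adjusted p = 0.126), but 268 of its 1818 stretches of 50 bases occur elsewhere in the genome. For VIM2, which also enters the medians, 1201 of 1786 such stretches do, so both genes are uncertain.

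Of 7 DNA methyltransferase, chromatin and demethylase genes linked to the lysine 9 mark, 6 were tested. Their medians were −0.60 in kyp, 0.11 in globular and −0.92 in seed coat. MET1, the CG methyltransferase, was at 118 and 129 CPM in WT, 105 and 128 in kyp, 181 in globular and 71.8 in seed coat. CMT3, which reads the mark that KYP sets, was at 92.4 and 143 CPM in WT and at 79.1 and 73.4 CPM in kyp, so its pairs did not overlap, and it was not called. The pairs of DDM1 (29.8 and 33.8 CPM in WT, 24.4 and 18.4 in kyp) and IBM1 (49.8 and 80.2, 44.8 and 29.1) did not overlap either, chosen here after their values were seen. Such a pattern was shown by 3 of 6 tested genes of this list, all lower in kyp, and by 33.1% of all genes tested. In the other lists of relatives and partners it was shown by 1 of 5 SUVR genes (higher in kyp) and 1 of 3 VIM genes (lower). It was also shown by 2 of 7 genes of the polymerase V step (both lower), AGO4 among them. DNAJ1, the 1 tested DNAJ partner, showed it too (higher), and 0 of 3 tested known methylated targets did. Of the marker lists, 2 of 5 tested endosperm markers showed it, both higher in kyp. So did 2 of 5 embryo markers (1 lower), and 0 of 10 seed coat markers did. MEA, of the endosperm list, had 7 and 8 reads in WT and 29 and 48 in kyp. By edgeR 2 of 5 endosperm markers had an unadjusted p under 0.05, against 5.1% of all genes, and 0 were called. The part of these markers in the kyp values was not tested.

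The 7 genes of the polymerase V step, where SUVH2 and SUVH9 act, had medians of −0.28, −0.07 and −0.55. AGO4, which carries the small RNAs, was at 206 and 205 CPM in WT, 199.7 and 137 in kyp, 285 in globular and 206 in seed coat. NRPE1, the largest subunit of polymerase V, ranged from 40.7 to 86.1 CPM. Of the DNAJ partners of SUVH1 and SUVH3, DNAJ1 (AT5G64360) kept within 56.2 to 82.8 CPM, against 17.4 to 121 CPM for SUVH3. DNAJ2 (AT2G05230) had 0 reads in every library, and 2713 of its 2813 stretches of 50 bases occur elsewhere in the genome.

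Known methylated targets were sparse, with 3 of 6 tested for kyp and 4 of 6 for the globular and seed coat libraries. Their median log2 fold changes were 0.43 in kyp, −0.17 in globular and −0.14 in seed coat. ROS1, a DNA demethylase gene, was at 48.1 and 69.3 CPM in WT and at 68.5 and 83.3 CPM in kyp. FWA, an imprinted homeobox gene, was at 15.3 and 30.7 CPM in WT and at 32.3 and 29.8 CPM in kyp. For both genes the groups overlapped. Among targets with too few reads to be tested for kyp, QQS had 5 and 10 reads in kyp11 and kyp12 and 0 in every other library. PAI2 went the other way, with 2 and 10 reads in WT7 and WT11 and 0 in every other library. Of its 1544 stretches of 50 bases, 1010 occur elsewhere in the genome, so PAI2 is uncertain. SUP overlapped, with 0 and 26 reads in WT and 3 and 0 in kyp.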

How the data were processed

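RNA was measured in 6 libraries, made, per the labels' protocols, with linear amplification before SOLiD adaptors were ligated. Each deposited table gives a read count per transcript, its covered bases and its length, per the file headers. WT11 and kyp12 (prefix MC in their names) hold deposited values that need not be whole, which were treated as estimated counts and rounded upward. Aligner, counter and genome build are not given in the sources used here, so coordinates and sequences are not printed. RefSeq's TAIR10.1 served for names, exon numbers and overlaps, and 31584 of 32140 loci matched it.

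The 37813 transcripts found in all 6 files were used and 5 left out. The whole table was tested in edgeR 4.0.16 under R 4.3.3, using quasi-likelihood F tests after TMM scaling. Genes passed filterByExpr (minimum count 10), and p-values were adjusted by Benjamini-Hochberg with a threshold of 0.05. For kyp the 4 libraries of 2-4 cells entered (biological coefficient of variation 0.475). The others used all 6 (0.505), and each fit had 2 residual degrees of freedom. Standard errors are the fold change over the square root of F. The tests were run on simulated counts with known changes first. Alternatives were DESeq2 1.42.0, other scaling, filtering, isoform and rounding choices, the prefix as a block, and each library of 2-4 cell embryos left out.

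The members, gene lists and tests were chosen with earlier results of these data known. All 9 members are named. Of each other list the text names the members past the threshold or, with none, the 2 most abundant, with some exceptions. DDM1, IBM1, TT10, QQS, PAI2 and SUP were named after their values were seen, and VIM2 for its shared sequence. All embryo markers were named.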

Additional observations from a re-analysis of the deposited data

How the results depend on the processing

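Of 319 recomputed fold changes of single members, 298 kept their direction and their side of the threshold, and KYP and SUVH9 kept their direction in all. SUVH9 still moved with the WT library left out: in kyp from −0.64 to −0.11 without WT7 and −1.03 without WT11, in globular against WT from −1.23 to −0.70 and −1.62, and in seed coat against WT from −0.87 to −0.35 and −1.26, in the same order. SUVH3 in globular against seed coat missed the threshold with isoforms summed (2.79, edgeR adjusted p = 0.0827), which left 0 members called there. Isoforms of a locus repeat most reads (87 and 86 in WT7 for SUVH6), so the sum counts them more than once. Across all 4 groups 1 member, SUVH3, was called with DESeq2, without the low-count filter and without any 1 of the 4 libraries of 2-4 cell embryos (1 to 1). The cause was not tested.

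All other reversals were of values that did not pass the threshold. In kyp, SUVH1 turned to −0.0027 with DESeq2 and −0.0041 without the filter, and SUVH5 to 0.091 with the prefix as a block. With 1 library left out, SUVH1 lay between −0.39 and 0.58 (negative without WT7 or kyp11), SUVH2 between −0.58 and 1.36 (negative without WT11 or kyp12) and SUVH3 between −0.37 and 0.15 (positive without WT7 or kyp12). SUVH5 lay between −0.64 and 0.95 (positive without WT7 or kyp12), SUVH6 between −0.97 and 0.017 and SUVH8 between −6.79 and 0.18 (both positive without kyp12). In globular against WT, the block gave −0.16 for SUVH5 and −0.90 for SUVH8. With 1 library left out SUVH2 lay between −1.47 and 0.48 (positive without WT7) and SUVH5 between −0.29 and 1.29 (negative without WT11). In seed coat against WT, SUVH1 lay between −0.96 and 0.016 (positive without WT11), SUVH2 between −0.43 and 1.51 (negative without WT11) and SUVH5 between −1.35 and 0.24 (positive without WT7).

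Counts over all genes moved more. In kyp, 5 genes were called, and 48 with DESeq2, 106 without the filter, 18 with the block, 14 with all 6 libraries and 8 to 126 with 1 library left out. In globular against WT, 205 became 344 with DESeq2, 562 without the filter, 344 with the block and 336 to 496 with 1 library left out. In seed coat against WT, 139 became 441 with DESeq2, 479 without the filter, 85 with isoforms summed, 296 with the block and 267 to 428 with 1 library left out. In globular against seed coat, 315 became 719 with DESeq2, 763 without the filter, 200 with isoforms summed, 837 with the block and 654 to 789 with 1 library left out. Across the 4 groups, 319 became 683 with DESeq2, 1083 without the filter, 206 with isoforms summed, 796 with the block and 762 to 884 with 1 library left out. Library numbers could not pair the groups, which share a single number, 11, and the name prefix was the block used above. At 26 reads for SUVH7 and 44 for SUVH8 over all libraries, depth limits both genes.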
